A study of Mus musculus with 11 samples.

Results

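The 7 genes described here, H2-Aa, H2-Ab1, H2-Eb1, H2-DMa, H2-DMb1, Cd74 and Ciita, serve the major histocompatibility complex (MHC) class II route of antigen presentation. They were taken by gene name from a deposited table of 43346 genes, and each name matched 1 gene ID. The libraries came from liver cells of wildtype male C57BL/6 mice aged 14 to 16 weeks. The Control group (n = 4) ate chow, the DDC group (n = 4) ate the DDC diet for 10 days, and the R15 group (n = 3) ate the DDC diet for 10 days and then chow for 15 days. DDC is a porphyrin-disturbing diet used in mice as a model of cholestatic liver injury. Dissociated livers were sorted with beads against EpCAM (CD326), an epithelial surface protein, over a pair of successive columns, and polyA RNA was sequenced from stranded libraries. The labels call the product cholangiocytes, which form the lining of bile ducts.

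Class II molecules are pairs of an alpha and a beta chain that carry peptides from taken-up proteins to the cell surface, where CD4 T cells read them. H2-Aa and H2-Ab1 encode the chains of the I-A molecule and H2-Eb1 the beta chain of I-E, whose alpha chain gene is not functional in C57BL/6 mice. Cd74 encodes the invariant chain, which fills the groove and guides the molecule to endosomes, and the H2-DMa and H2-DMb1 products exchange its last fragment for peptide. Ciita encodes the coactivator that turns these genes on together. Dendritic cells, macrophages and B cells express class II without further stimulus, and interferon gamma can induce it in other cells, epithelial cells among them.

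The promoters of class II genes share an X box, bound by the RFX complex, and a Y box, bound by NF-Y, and CIITA docks on the assembled proteins without contacting DNA itself. The windows that hold the boxes are shown, from RefSeq on GRCm38.p6 (the build also called mm10). The letters CNNGNAAC (X-like) and TGATTGG (Y-like) are in capitals, and both were chosen after these promoters were read. The H2-Aa window lies on the minus strand at chr17:34287834-34288073 and the H2-Eb1 window on the plus strand at chr17:34305617-34305856. For H2-DMb1, whose start differs between annotations, the X-like stretch at chr17:34153083-34153112 and the Y-like stretch at chr17:34153117-34153146 are given alone, both on the plus strand.
H2-Aa: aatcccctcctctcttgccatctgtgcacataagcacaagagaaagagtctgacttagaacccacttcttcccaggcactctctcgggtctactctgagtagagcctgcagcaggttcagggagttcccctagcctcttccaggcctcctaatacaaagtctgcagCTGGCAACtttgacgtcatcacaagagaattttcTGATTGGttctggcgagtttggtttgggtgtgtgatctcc
H2-Eb1: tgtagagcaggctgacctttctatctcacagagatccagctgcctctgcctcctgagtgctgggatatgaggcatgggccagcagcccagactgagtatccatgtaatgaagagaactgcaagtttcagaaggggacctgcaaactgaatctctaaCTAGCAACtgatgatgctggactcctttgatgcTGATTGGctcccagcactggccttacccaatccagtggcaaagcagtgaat
H2-DMb1 X: atgaggtttacCTAGTAACtgatgatgcta
H2-DMb1 Y: gattcactcagTGATTGGtctgacctgcct

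In these 3 genes an X-like stretch stood upstream of a Y-like stretch on the strand of the gene. The first base of the X-like stretch lay at -84, -94 and -97 from the RefSeq start of H2-Aa, H2-Eb1 and H2-DMb1, and that of the Y-like stretch at -50, -61 and -63. TGATTGG contains the reverse complement of CCAAT, the NF-Y letters, so the motifs overlap. Of 32851 RefSeq windows of 250 bases upstream of a start, 33.8% held CCAAT on either strand, 7.23% held TGATTGG and 33.3% held CNNGNAAC. The ordered pair with 12 to 32 bases between them was found in 46 windows, or 0.14%. H2-Eb2, H2-Oa and H2-Ob, 3 further class II genes described below, also carried the pair. H2-Ab1, Cd74 and Ciita had no entry in the promoter table, and the entries for H2-DMa began 9664 and 12350 bases from the gene start in the deposited table, so they were not read. The entry for H2-DMb2 began 1942 bases from its gene start and did not hold the pair at that spacing. A match of letters is a description of the sequence, and binding was not measured.

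On the deposited mm10 coordinates, 5 of the 7 genes lie within 1 stretch of chromosome 17. H2-DMa (ENSMUSG00000037649) spans 34135182 to 34139101, H2-DMb1 (ENSMUSG00000079547) 34153072 to 34160230, H2-Ab1 (ENSMUSG00000073421) 34263209 to 34269418, H2-Aa (ENSMUSG00000036594) 34282744 to 34287827 and H2-Eb1 (ENSMUSG00000060586) 34305877 to 34316199. Ciita (ENSMUSG00000022504) lies on chromosome 16 at 10488178 to 10527564 and Cd74 (ENSMUSG00000024610) on chromosome 18 at 60803848 to 60812646. In annotation the Ciita span overlaps Dexi on the opposite strand, and no source used here gives the strand setting of the authors' counting. H2-DMb1 and its neighbour H2-DMb2 have transcripts 95.83% identical over 1080 aligned bases, with a longest identical run of 221 bases, so the division of reads between them is uncertain.

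Reads recovered from the table came to between 49339240 and 72929107 per library. The labelled cell type was visible in all 11 libraries, with Epcam at 259 to 431 FPKM (fragments scaled to gene length and library depth, the deposited unit). The values also held RNA of other cells. The summed FPKM of a 20-gene macrophage list was 147 to 169 in Control, 1512 to 2712 in DDC, and 156, 840 and 190 in R15 1, 2 and 3. The summed FPKM of a 16-gene B cell list was 8.08 to 21.9 in Control, 10.99 to 13.6 in DDC and 8.44 to 20.9 in R15. The summed hepatocyte list was 2956 to 3637 FPKM in Control, 1085 to 1623 in DDC and 1819 to 2508 in R15. The lower sum in DDC did not hold for most of its genes. By the limma test described below, 3 of its 10 tested genes were lower in DDC, 1 was higher and 6 did not pass (median -0.16). Of all tested genes 31.9% were lower and 33.5% higher. The summed endothelial list was 122 to 533 FPKM in Control, 30.1 to 67.6 in DDC and 80.7 to 258 in R15. By the same test, 11 of the 12 tested endothelial genes were lower in DDC (median -2.11), as were 31.9% of all tested genes. The part of the hepatocyte and endothelial RNA in the class II results was not tested. Reads of 16 pancreatic acinar genes, listed after the values were seen, made up 1.17%, 0.312%, 0.136% and 0.0011% of Control 1 to 4, 0.134% of DDC 1, 0.188% of R15 3 and at most 0.00124% elsewhere. In bulk RNA of this kind, fewer cells of a type and less RNA per cell cannot be told apart.

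After 10 days of the diet the chain genes, the invariant chain gene, H2-DMa and Ciita were higher than on chow. Measured as FPKM + 1, which shrinks changes of low genes, these rises ran from 2.41-fold for Ciita to 4.35-fold for H2-Aa. Tested with limma on log2(FPKM + 1) over all 15264 genes expressed at 1 FPKM or more in at least 3 libraries, 6 of the 7 passed a Benjamini-Hochberg adjusted p of 0.05, all higher in DDC. In this comparison 65.4% of tested genes passed in either direction and 33.5% passed as higher and 31.9% as lower. The same 6 genes had groups that did not overlap, which held in this direction for 31.5% of tested genes. The median log2 change of the 7 genes was 1.84.

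H2-Aa, the I-A alpha chain gene, was at 217, 105, 86.0 and 48.2 FPKM in Control 1 to 4, at 376, 458, 481 and 422 in DDC 1 to 4, and at 85.3, 281 and 135 in R15 1 to 3. The DDC libraries were the highest 4, and R15 2 was the highest of the rest. H2-Aa rose by 2.12 ± 0.44 on the log2 scale (SE, limma adjusted p = 0.0018) in DDC against Control.

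H2-Ab1, the I-A beta chain gene, was at 301, 174, 136 and 66.3 FPKM in Control, 456, 576, 604 and 494 in DDC, and 123, 374 and 193 in R15. Its DDC values again lay above all others. The log2 change in DDC was 1.84 ± 0.44 (limma adjusted p = 0.0039).

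H2-Eb1, the I-E beta chain gene, was at 339, 182, 143 and 75.5 FPKM in Control, 574, 698, 767 and 645 in DDC, and 140, 457 and 219 in R15. The groups Control and DDC did not overlap although the I-E alpha partner is not made in this strain, and the H2-Ea-ps entry was listed at 0 in all 11 libraries. H2-Eb1 rose by 2.05 ± 0.45 on the log2 scale in DDC (limma adjusted p = 0.0023).

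Cd74 was the most abundant of the 7 in every library. Its FPKM was 912, 449, 343 and 179 in Control, 1238, 1585, 1635 and 1392 in DDC, and 345, 1094 and 510 in R15. Control 1 and R15 2 came closest to the DDC range without reaching it. The log2 change in DDC was 1.87 ± 0.47 (limma adjusted p = 0.0053).

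As counted, the peptide exchange genes H2-DMa and H2-DMb1 did not move as one. The division of reads between H2-DMb1 and its near copy H2-DMb2 is uncertain, which bears on this. H2-DMa was at 27.9, 13.2, 11.9 and 5.83 FPKM in Control, 38.5, 49.8, 53.7 and 50.4 in DDC, and 8.95, 28.1 and 15.5 in R15, with no overlap between Control and DDC and a log2 change of 1.82 ± 0.42 (limma adjusted p = 0.0032). H2-DMb1 was at 30.8, 22.6, 15.1 and 8.26 FPKM in Control, 27.0, 32.1, 36.9 and 34.2 in DDC, and 11.2, 27.4 and 14.1 in R15. Control 1 lay above DDC 1 for this gene, so the groups overlapped, and the log2 difference of 0.87 ± 0.37 did not pass (limma adjusted p = 0.059). It passed under 6 of 25 alternatives, at 1.14 without Control 1 (limma adjusted p = 0.017), 0.87 without R15 2 (0.039), 1.11 with array weights (0.0098) and 0.91 by voom (0.048) among them.

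Ciita, the coactivator gene, was the least abundant of the 7 in every library. It was at 10.1, 4.51, 4.46 and 2.18 FPKM in Control, 10.6, 13.3, 14.6 and 12.9 in DDC, and 3.85, 11.7 and 5.66 in R15. The gap between Control 1 and DDC 1 was small, yet the groups did not overlap. Ciita rose by 1.27 ± 0.37 on the log2 scale in DDC (limma adjusted p = 0.012).

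**Figure D1:**
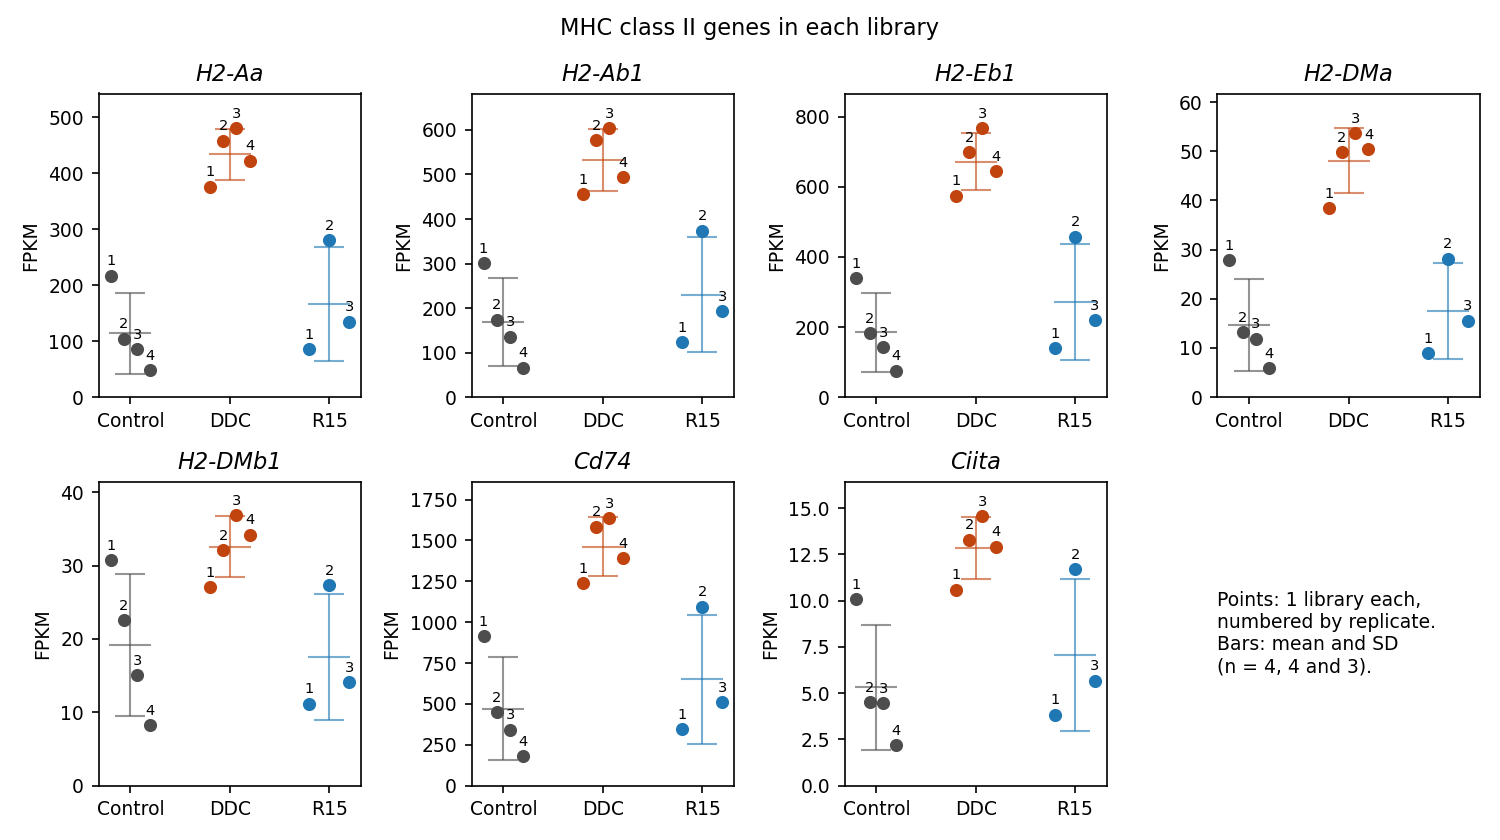
FPKM of the 7 class II genes in each library (points, numbered by replicate), with the mean and SD of each group (bars) and a linear axis from 0 for each gene. The 4 DDC libraries lie above all Control libraries for every gene but H2-DMb1, and Control 1 and R15 2 are the highest of their groups for all 7 genes.

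The libraries within a group were ordered alike. For all 7 genes the Control libraries ran from Control 1 down to Control 4 in the order of their labels, and the R15 libraries ran R15 2, R15 3, R15 1. DDC 3 was the highest and DDC 1 the lowest of the DDC libraries for all 7. Cd74 differed 5.11-fold between the highest and the lowest Control library, 1.32-fold within DDC and 3.17-fold within R15. In Control the pancreatic share of reads given above had the same order as the class II genes. So did the summed class I list (4619, 3675, 3612 and 2573 FPKM), Itgax and Flt3. The macrophage and B cell lists did not. A 20-gene interferon gamma response list, with a summed FPKM of 873, 262, 448 and 185, had the same highest and lowest library. In R15 the summed macrophage list had the order of the class II genes, which was not particular to it. The summed B cell, plasma cell, dendritic, endothelial, interferon gamma response and class I lists had that order too. The cholangiocyte and hepatocyte lists did not. The part of these in the spread of the class II genes was not tested.

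The order of the genes by FPKM, a level per length of gene, was nearly the same everywhere. Cd74 was followed by H2-Eb1, H2-Ab1, H2-Aa, the DM pair and Ciita in each of the 11 libraries. The ratio of Cd74 to H2-Ab1 lay between 2.52 and 3.03 over all libraries. The DM pair changed places: H2-DMb1 exceeded H2-DMa in the 4 Control libraries and R15 1, and H2-DMa exceeded H2-DMb1 in the 4 DDC libraries, R15 2 and R15 3. The ratio of H2-DMb1 to H2-DMa was 1.10 to 1.71 in Control, 0.645 to 0.703 in DDC and 0.909 to 1.25 in R15. This order and ratio rest on the uncertain division of reads between H2-DMb1 and H2-DMb2.

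Ratios between the genes were compared in DDC against Control for all 21 pairs, with a 2-sided exact permutation test of the log2 ratio, whose smallest p with 4 against 4 is 0.0286. H2-DMb1 fell relative to each of the other 6 genes (exact permutation p = 0.0286, adjusted over the 21 pairs p = 0.04). Relative to H2-DMa the difference was 1.00 on the log2 scale, and relative to Ciita 0.56. These differences rest on the uncertain division of reads between H2-DMb1 and H2-DMb2. Ciita in turn rose less than H2-Aa, by 0.66 on the log2 scale (exact permutation p = 0.0286, adjusted p = 0.04). The ratio of H2-Ab1 to Cd74 differed by -0.02 (exact permutation p = 0.771), with SDs of 0.12 in Control and 0.03 in DDC.

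After 15 days back on chow, H2-Aa, H2-Ab1, H2-Eb1, H2-DMa and Cd74 were lower than at the end of the diet. In R15 against DDC, 5 of the 7 passed, all lower (62.2% of tested genes passed in either direction, 33.4% as higher and 28.8% as lower), and those 5 had groups that did not overlap (31.0% of tested genes in this direction). H2-Aa fell by 1.54 ± 0.48 on the log2 scale (limma adjusted p = 0.017), H2-DMa by 1.53 ± 0.45 (0.014), H2-Eb1 by 1.46 ± 0.48 (0.022), H2-Ab1 by 1.35 ± 0.47 (0.03) and Cd74 by 1.33 ± 0.51 (0.042). The differences for Ciita, -0.89 ± 0.40 (limma adjusted p = 0.076), and H2-DMb1, -0.94 ± 0.40 (limma adjusted p = 0.06), did not pass, and R15 2 lay inside the DDC range for both. This comparison and DDC against Control share the DDC libraries.

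This count depended on single libraries. Without R15 2 all 7 genes passed as lower, while without R15 1 there were 0 by limma (2 at an unadjusted p of 0.05), without R15 3 there was 1, without DDC 3 there were 2 and without DDC 2 there were 3. The direction was lower for each of the 7 genes in every one of these.

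Against chow, R15 1 and R15 3 lay inside the Control range for all 7 genes, and R15 2 lay above it for every gene but H2-DMb1. In R15 against Control 0 of the 7 passed (limma adjusted p between 0.44 and 0.92), while 9.58% of tested genes passed in either direction, and the count was also 0 at an unadjusted p of 0.05 and by limma voom. The differences ran from -0.08 for H2-DMb1 to 0.58 for H2-Aa and H2-Eb1. The 95% interval for H2-Aa was -0.49 to 1.65 and that for Cd74 -0.59 to 1.66, so a return to the chow level and a rise of up to about 1.65 on the log2 scale were both within the error. Ordered by group mean, DDC came first for all 7 genes, and the means of R15 and Control did not differ beyond their spread.

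**Figure D2:**
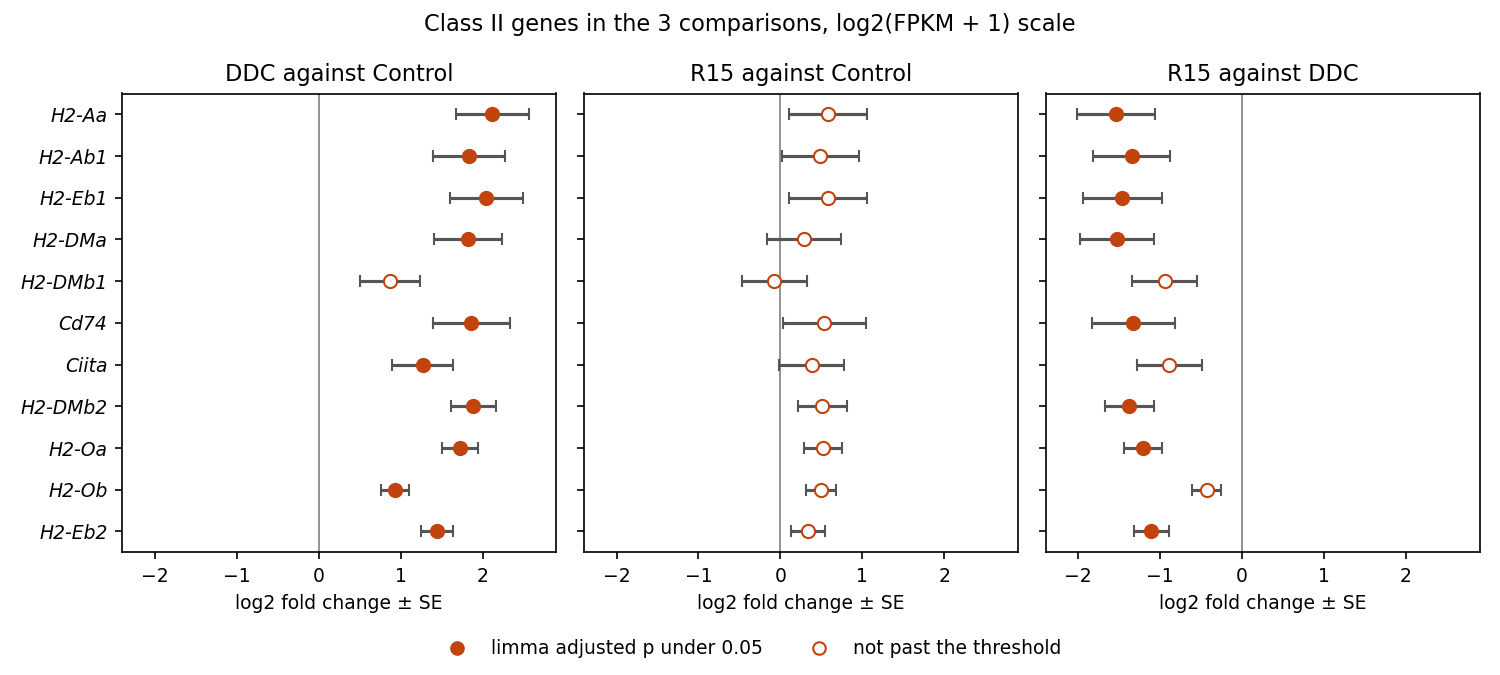
Log2 fold change with its SE in each of the 3 comparisons for the 7 genes and 4 further class II genes, from limma on log2(FPKM + 1). Filled points passed an adjusted p of 0.05. In DDC against Control only H2-DMb1 is open among the 11, in R15 against Control all 11 are open, and in R15 against DDC H2-DMb1, Ciita and H2-Ob are open.

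Other class II genes also rose. H2-Oa and H2-Ob encode DO, which restrains DM, H2-DMb2 encodes another DM beta chain and H2-Eb2 another E beta chain. All 4 tested genes of this list rose in DDC, against 33.5% of all tested genes. H2-DMb2 rose by 1.89 ± 0.28, H2-Oa by 1.73 ± 0.22, H2-Eb2 by 1.45 ± 0.20 and H2-Ob by 0.93 ± 0.17 on the log2 scale (limma adjusted p at most 6.5e-04). Their levels were low, with H2-Oa at 2.16 to 3.90 FPKM in Control and 11.1 to 14.6 in DDC. The ratio of H2-DMb2 to H2-DMb1 was 0.187 to 0.329 in Control, 0.509 to 0.603 in DDC and 0.334 to 0.426 in R15, which rests on the uncertain division of reads between these near copies. In R15 against DDC 3 of the 4 were lower, as were 28.8% of all tested genes. H2-Ob missed the threshold (limma adjusted p = 0.057), which it passed under 8 of 25 alternatives (-0.65 to -0.24, limma adjusted p between 0.0051 and 0.049). Among these were the absence of R15 2, array weights, voom and a pair of other scalings.

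The other expressed genes between them gave smaller differences. The stretch from H2-Oa to H2-Eb2 covers 247.889 kb and 19 table entries, of which 14 were tested. Besides the 9 class II genes it holds Psmb8 and Psmb9, immunoproteasome subunits, Tap1 and Tap2, the peptide pump of the class I route, and Brd2, a bromodomain protein. Psmb9 differed by -0.15 ± 0.25 on the log2 scale, Tap1 by -0.11 ± 0.30, Tap2 by -0.16 ± 0.14 and Psmb8 by 0.30 ± 0.21, and none passed (limma adjusted p between 0.23 and 0.76). Without Control 1, Psmb8 passed at 0.49 (limma adjusted p = 0.021) and Tap1 and Psmb9 changed sign, and without Control 4 Tap2 passed at -0.29 (limma adjusted p = 0.048). Brd2 rose by 0.21 ± 0.04 (limma adjusted p = 0.0014).

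**Figure D3:**
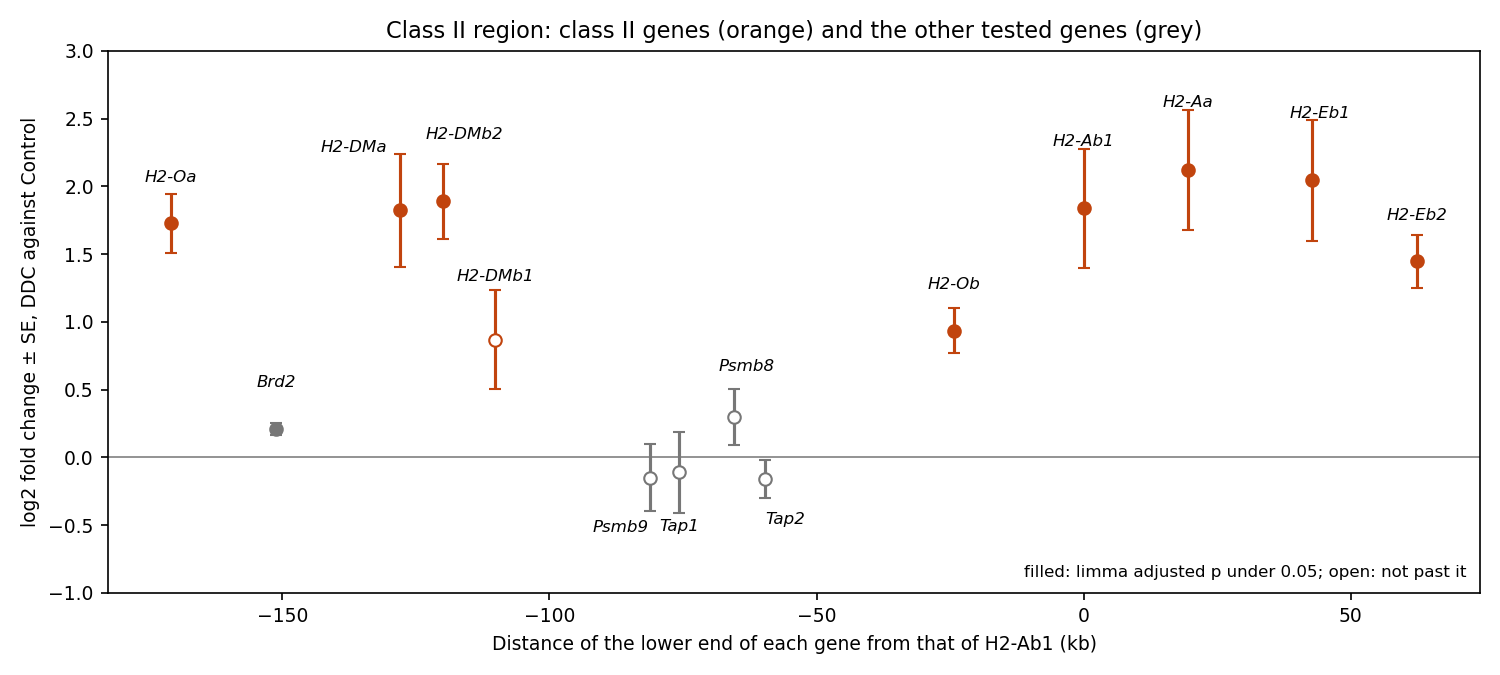
Log2 fold change (± SE) in DDC against Control of the 14 tested genes from H2-Oa to H2-Eb2, placed by the distance in kb from the lower end of H2-Ab1. Class II genes (orange) lie between 0.87 and 2.12, while the 5 others (grey) lie between -0.16 and 0.30.

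Genes of factors that act on class II promoters moved in both directions, by at most 0.71 on the log2 scale. In a list of 9, Rfx5 and Cbx3 were higher in DDC and Rfxank, Creb1, Zxdc and Rfxap lower (33.5% and 31.9% of all tested genes). The list median was -0.07 beside 1.84 for the 7 class II genes. Rfx5, the large RFX subunit, rose by 0.30 ± 0.07 and Rfxank, the ankyrin-repeat RFX subunit, fell by 0.71 ± 0.05 on the log2 scale (limma adjusted p = 0.0026 for Rfx5). Rfxank was at 10.0 to 11.3 FPKM in Control, 5.90 to 6.53 in DDC and 9.78 to 10.2 in R15. Rfxap, the third RFX subunit, fell by 0.21 ± 0.07 (limma adjusted p = 0.019) and did not pass without Control 2, Control 3 or DDC 3. Creb1, a factor of the X2 box, fell by 0.36 ± 0.06. The NF-Y subunit genes did not pass, with Nfya at -0.04 ± 0.08, Nfyb at 0.09 ± 0.05 and Nfyc at -0.07 ± 0.04. Nfyb passed at 0.13 without Control 1 (limma adjusted p = 0.038).

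In the interferon gamma route 4 of 9 tested genes were higher in DDC and 2 lower (1 to 3 with 1 library left out), with a list median of 0.13. Of all tested genes 33.5% passed as higher and 31.9% as lower, so the count is not read as a result about the route. The receptor subunits Ifngr1 and Ifngr2 rose in DDC by 0.73 ± 0.05 and 0.88 ± 0.11, the kinase gene Jak2 by 0.77 ± 0.07 and the feedback inhibitor Socs3 by 1.21 ± 0.40, while Usf1, an upstream stimulatory factor, fell by 0.15 ± 0.06 (limma adjusted p = 0.033). Usf1 did not pass when Control 1, Control 2, DDC 1, DDC 3 or DDC 4 was left out in turn. Irf1, which drives the inducible Ciita promoter, differed by -0.41 ± 0.20 (limma adjusted p = 0.1), and passed at -0.55 without Control 4 (limma adjusted p = 0.034). Ifng itself stayed under the filter, at 0.929, 0.244, 0.67 and 0.0863 FPKM in Control and 0.0168 to 0.0735 in DDC.

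Genes that interferon gamma induces in many cells mostly fell or did not pass. Of 17 tested genes of the response list 8 fell in DDC and 1 rose (0 to 2 with 1 library left out). Of all tested genes 31.9% fell and 33.5% rose. The list median was -1.04 (-0.61 without Control 1). The GTPase genes Tgtp1 and Irgm2 fell by 2.84 ± 0.58 and 2.05 ± 0.39 on the log2 scale (limma adjusted p = 0.0015 and 0.001). Tgtp1 was at 163.9 FPKM in Control 1 and 17.6 to 71.9 in the other Control libraries, against 4.67 to 7.16 in DDC. Without Control 1 and Control 3 together the changes were -1.74 and -1.29.

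Class I genes, whose products present peptides from inside the cell, gave a median of -0.07 in DDC, which was 0.10 without Control 1 and -0.29 without Control 4. Among 17 tested genes 1 rose, Pdia3 at 0.26 ± 0.08, and 1 fell, H2-T23 at -0.94 ± 0.17 (33.5% and 31.9% of all tested genes). The most abundant, B2m, H2-K1 and H2-D1, differed by -0.01 ± 0.16, -0.45 ± 0.20 and -0.26 ± 0.16 and did not pass. Without Control 1 there were 4 higher, and without Control 4 there were 6 lower, H2-K1 (-0.65) and H2-D1 (-0.42) among them. H2-K1 also passed under quantile normalization (-0.67), rescaling to one total (-0.54) and the replicate block (-0.45), and H2-D1 under quantile normalization (-0.41).

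The genes that prepare and handle class II cargo rose with it. Of 14 tested, 10 rose in DDC, 1 fell and the median was 1.18, beside 33.5% of all tested genes higher and 31.9% lower. Ctss, the cathepsin that trims the invariant chain in antigen presenting cells from bone marrow, was at 16.7 to 35.7 FPKM in Control, 322, 389, 352 and 502 in DDC, and 25.3, 154 and 35.1 in R15. It rose by 3.83 ± 0.48 on the log2 scale in DDC and fell by 2.87 ± 0.52 in R15 against DDC (limma adjusted p = 8.2e-04). Ctsl, the cathepsin with this task in thymic epithelium, was at 97.3 to 130 FPKM in Control and 92.9 to 104 in DDC, and its difference of -0.20 ± 0.08 did not pass (limma adjusted p = 0.052). It passed as lower under 8 of 25 alternatives, among them 3 other scalings of the libraries, voom and the absence of Control 1. Lgmn, an endosomal protease, rose by 2.08 ± 0.26, Ifi30, the lysosomal thiol reductase, by 1.44 ± 0.26, and March1, the ligase that removes class II from the surface of dendritic and B cells, by 1.46 ± 0.17. March8, its widely expressed relative, fell by 0.33 ± 0.04.

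Co-signals that T cells read beside class II also rose, in 8 of 10 tested genes with none lower and a median of 1.68. Of all tested genes 33.5% were higher. Cd86 was at 0.537 to 1.54 FPKM in Control, 5.57 to 7.61 in DDC, and 0.835, 3.77 and 1.44 in R15. Cd86 rose by 1.94 ± 0.26, Cd80 by 1.37 ± 0.21, Cd40 by 0.95 ± 0.25 and Cd83, which keeps class II on the surface, by 2.58 ± 0.34 on the log2 scale. Cd274, the inhibitory ligand PD-L1, differed by 0.67 ± 0.31 and did not pass (limma adjusted p = 0.08), and passed at 0.96 without Control 1 (limma adjusted p = 0.0069). In R15 against DDC 9 of the 10 were lower, as were 28.8% of all tested genes. As with class II, R15 2 held the highest R15 value of Cd86 and Ctss.

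**Figure D4:**
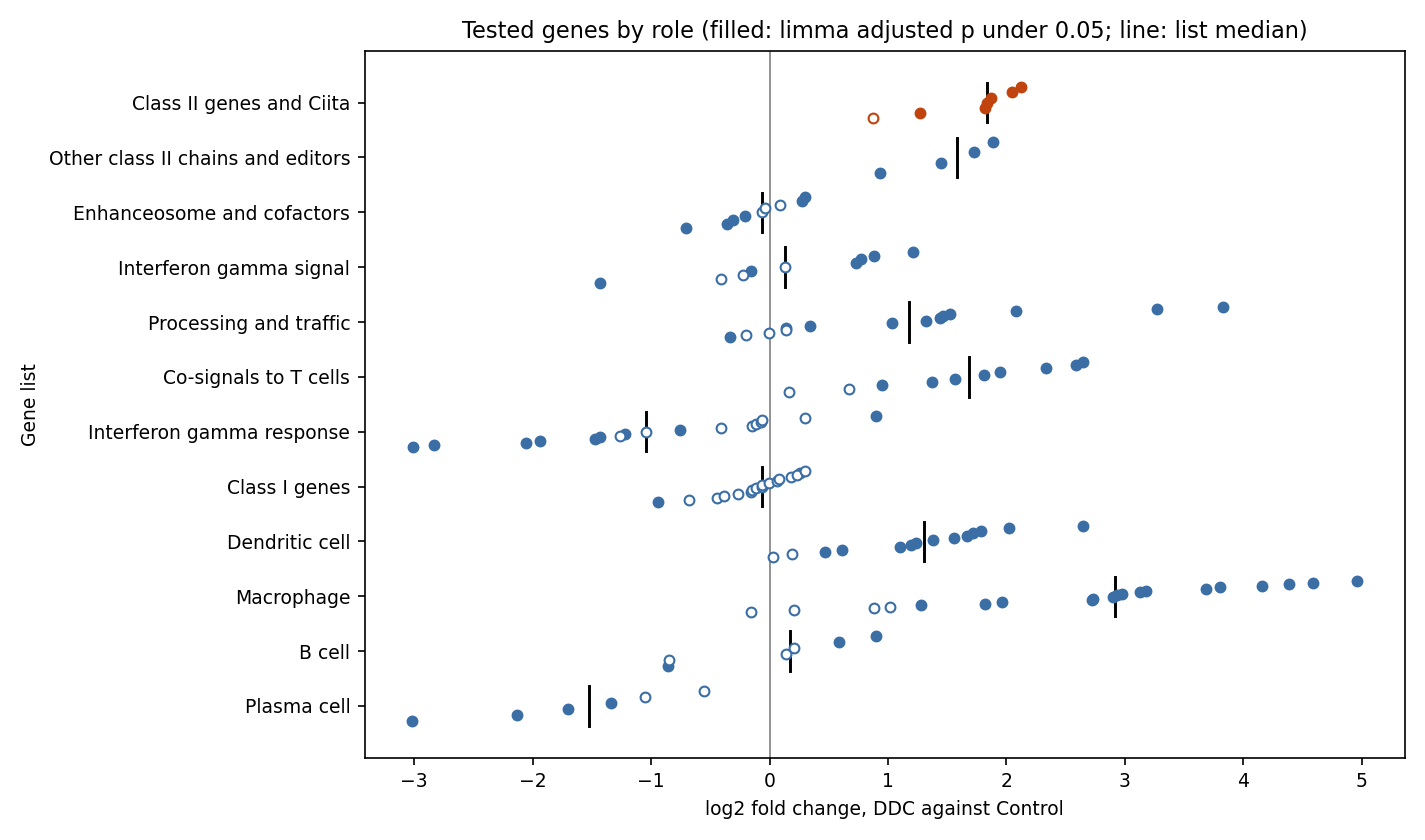
Log2 fold change in DDC against Control for each tested gene by list, with list medians as lines and filled points for a limma adjusted p under 0.05. On the log2(FPKM + 1) scale the class II median (orange, 1.84) lies near those of the processing, co-signal and dendritic cell lists. The macrophage median (2.92) lies to its right and the class I and interferon gamma response medians (-0.07 and -1.04) to its left. This scale shrinks changes of low genes.

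Relative to the summed macrophage list of the same libraries, class II was lower in DDC, which did not hold for every macrophage gene taken alone. The macrophage list rose in 16 of 20 genes in DDC, against 33.5% of all tested genes, with a median of 2.92. Lyz2 rose by 4.59 ± 0.45, C1qb by 4.15 ± 0.52, C1qa by 3.80 ± 0.52, Adgre1 by 2.93 ± 0.47 and Csf1r by 1.28 ± 0.15 on the log2 scale. The ratio of H2-Aa to the summed FPKM of the list was 1.43, 0.619, 0.567 and 0.328 in Control, 0.249, 0.251, 0.28 and 0.156 in DDC, and 0.546, 0.334 and 0.711 in R15. All DDC ratios lay below all Control ratios for this gene and for each of the other 6 (2-sided exact permutation p = 0.0286, the smallest that 4 against 4 allow, adjusted over the 14 ratios p = 0.0308). The fall was 2.79-fold for H2-Aa, 3.35-fold for Cd74, 4.40-fold for Ciita and 6.48-fold for H2-DMb1. The choice of macrophage gene bore on this: with Cd68 as the divisor the groups separated for 7 of 7 genes, with Adgre1 for 5, and with Csf1r all 7 overlapped. Relative to Csf1r the mean log2 ratio was higher in DDC for 6 of the 7, by 0.17 for Ciita to 0.83 for H2-Aa, and lower by 0.38 for H2-DMb1.

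Set against B cell genes, class II rose. Of the 16 B cell genes 6 were tested, of which Fcrla and Cd22 rose and Cd79a fell in DDC (33.5% and 31.9% of all tested genes). The most abundant ones, Pou2af1 (-0.84 ± 0.46), Cd79b (0.20 ± 0.20) and Spib (0.14 ± 0.30), did not pass, though Pou2af1 passed at -1.21 without Control 2 and Spib at 0.63 without Control 1 and Control 3. Cd79a, a chain of the B cell receptor complex, fell by 0.86 ± 0.23 on the log2 scale (limma adjusted p = 0.0068). Ms4a1, which encodes CD20, was under the filter and was not at 0 in any library. The ratio of H2-Aa to the summed B cell list was 4.32 to 13.0 in Control, 31.0 to 43.7 in DDC and 10.1 to 14.9 in R15, a 4.91-fold rise. The groups separated in this way for 6 of 7 genes (exact permutation p = 0.0286, adjusted p = 0.0308), and for H2-DMb1 they overlapped (exact permutation p = 0.0857). Plasma cell transcripts went down: 4 of 6 tested genes fell in DDC (31.9% of all tested genes), Igkc by 1.70 ± 0.43 and Igha by 3.02 ± 0.56 on the log2 scale. Without Control 1 and Control 3 neither Cd79a (-0.67) nor Igkc (-1.46) passed.

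On the log2(FPKM + 1) scale, which shrinks changes of low genes, the dendritic cell list had a median nearer to class II. In DDC 12 of 14 tested rose, against 33.5% of all tested genes. The median was 1.31, beside 1.84 for the 7 class II genes and 2.92 for the macrophage list. Cd24a was listed both here and among cholangiocyte genes. Itgax, which encodes CD11c, was at 3.22 to 9.30 FPKM in Control, 34.5 to 45.6 in DDC, and 7.37, 20.9 and 9.62 in R15, a log2 change of 2.65 ± 0.31 in DDC. Flt3, a growth factor receptor of dendritic cells and their progenitors, rose by 2.02 ± 0.15 on this scale. Without the added 1, log2 of DDC FPKM over the Control geometric mean was 2.82 to 3.07 for Flt3. It was 2.63 to 3.03 for Itgax and 1.93 to 2.29 for H2-Aa. Zbtb46, a transcription factor of conventional dendritic cells that endothelium also expresses, was at 3.57 to 5.08 FPKM in Control and 4.29 to 4.96 in DDC (0.03 ± 0.11, not passed). The ratio of each of the 7 genes to Itgax and to Flt3 was lower in every DDC library than in every Control library, for H2-Aa and Itgax 15.0 to 23.3 in Control, 9.84 to 11.4 in DDC and 11.6 to 14.0 in R15. Relative to Ptprc, the CD45 gene of all leukocytes, 6 of 7 genes overlapped between the groups, with median ratios of 60.8 in Control, 62.1 in DDC and 51.9 in R15 for H2-Aa. Ptprc itself rose by 1.57 ± 0.24 on the log2 scale. Whether leukocytes or cholangiocytes carried the class II transcripts cannot be told apart in these libraries.

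**Figure D5:**
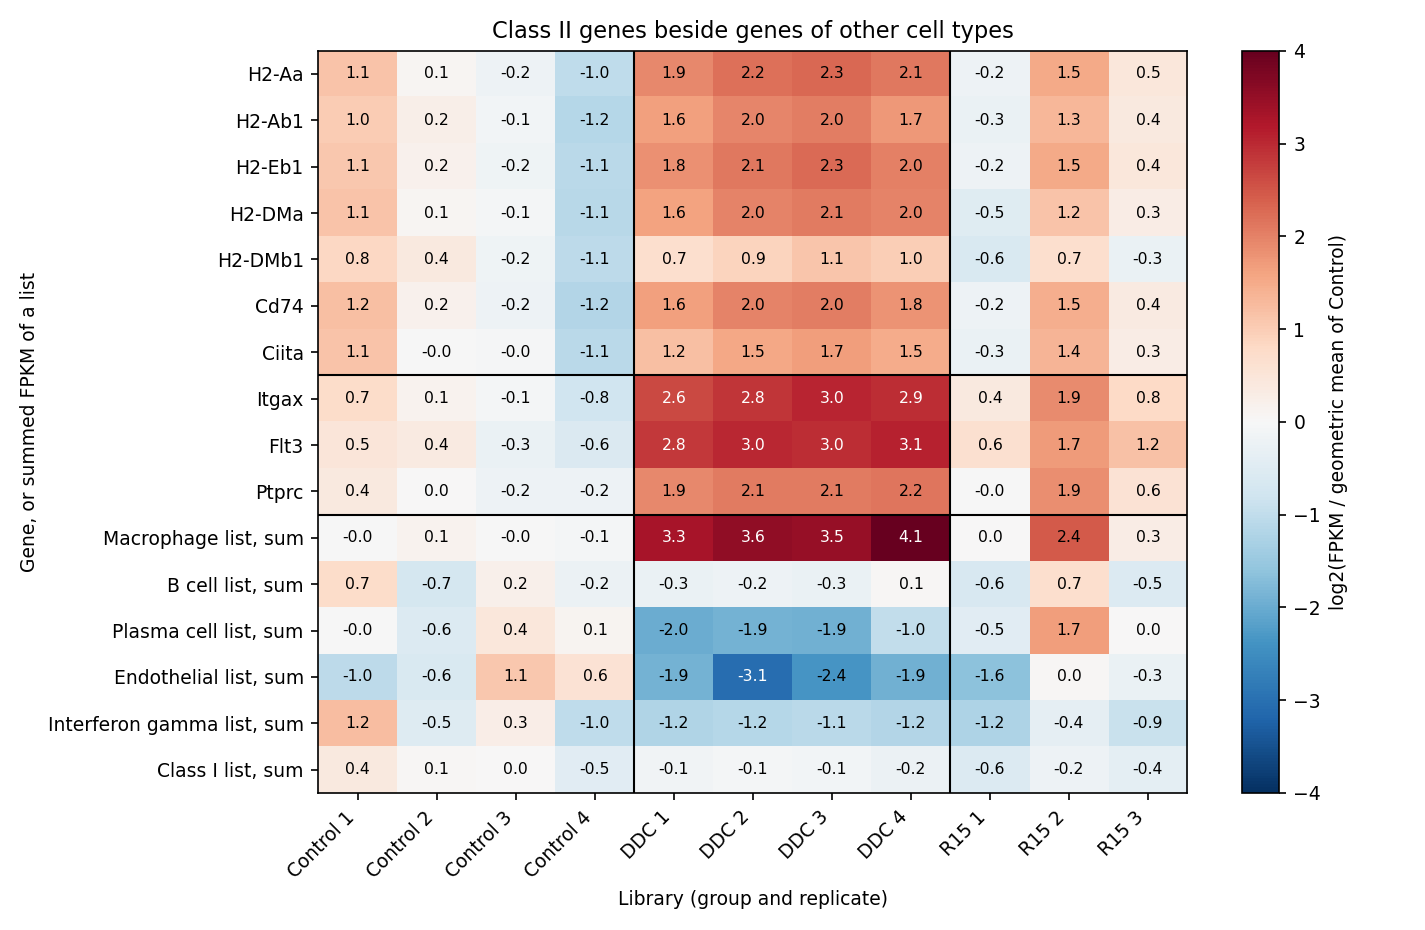
Log2 of each library's FPKM over the geometric mean of the Control libraries, for the 7 class II genes, Itgax, Flt3 and Ptprc, and for the summed FPKM of 6 lists (colour and printed value). R15 2 is the highest R15 library in every row. Control 1 is the highest Control library in every row but the macrophage, plasma cell and endothelial lists. The B cell list is near 0 in DDC.

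The genes most like class II over the 11 libraries were looked for among 9996 candidates with a mean of at least 5 FPKM, the 7 class II genes left out. Likeness was the root mean square difference, in log2 units, from the mean centred profile of H2-Aa, H2-Ab1, H2-Eb1 and Cd74, so that smaller is closer, and it is a description over libraries that share group and depth. The closest was Mir5107 at 0.07, whose entry lies inside Cd74 on the same strand, so its reads cannot be told apart from those of Cd74. Plbd1 (0.25), H2-DMb2 (0.31), Themis2 (0.31), Lsp1 (0.32), Ccl22 (0.32) and Rnase6 (0.36) were also among the closest 8. Plbd1, a lysosomal phospholipase-like protein, had a mean of 9.10 ± 3.39 FPKM over the 4 Control libraries (± SD), 39.4 ± 4.44 over the 4 DDC libraries and 16.6 over the 3 R15 libraries. Of the class II genes that did not enter the reference profile, H2-DMa stood at 0.13, Ciita at 0.34 and H2-DMb1 at 0.50. Itgax stood at 0.36, Csf1r at 0.70 and C1qa at 0.98.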

How the data were processed

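RNA of EpCAM-selected liver cells was sequenced from 11 mice, 1 per library. The authors deposited 1 table of FPKM (fragments scaled to gene length and library depth) per gene and library. Per the submitters' processing notes the genome was mm10. No source used here gives the aligner, the counter or the annotation release. All 11 value columns were matched to samples by their names, and 0 columns belonged to other samples. Nothing in the labels says that mice were pooled, and p-values measure the spread between these samples.

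Whole reads were recovered from the deposited FPKM and gene lengths (100% of the values above 0 came out whole, to within 0.001). They gave the depth and a voom alternative. FPKM of 0.9 to 1.1 rested on a median of 122.5 reads.

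Tests used log2(FPKM + 1), on which changes of low genes look smaller than they are. Genes at FPKM 1 or more in at least 3 libraries were fitted together over the 3 groups with limma 3.58.1 (R 4.3.3) with a variance trend, 2-sided, with Benjamini-Hochberg adjustment over 15264 genes and a threshold of 0.05, after a test on simulated data. Ratios were compared by exact permutation (SciPy 1.17.1), and transcripts were aligned in Biopython 1.88. Named genes were the 7 class II genes, genes of the class II pathway lists, the 3 most abundant tested genes and the defining genes of each cell type, interferon and class I list, and the 8 genes of closest profile. Brd2, Psmb8, Psmb9, Tap1 and Tap2 were named for their position, and H2-T23, Pdia3, Fcrla, Cd22 and Cd68 after their values were seen. Some genes that the rule names are not reported here. The members and lists were chosen with earlier results of these data known. The 25 alternatives covered pseudocounts, filters, scaling, weights, voom, the replicate number as a block and left-out libraries, 2 of them chosen after seeing the data.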

Additional observations from a re-analysis of the deposited data

Results flagged for a closer look

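In Control and DDC, none of the 7 class II genes had a library standing apart from its group by Dixon's criterion. The criterion rests on the gap between the extreme library and its neighbour. The R15 group (n = 3) was not examined, so nothing is said here of R15 2. Among the 148 groups of 4 libraries examined for the named genes, 6 met it, or 4.05%, and chance gives about 1 in 20. Lgmn, the endosomal protease gene, was at 201 FPKM in DDC 4 against 128 to 138 in the other DDC libraries. In the same library Igkc was at 458 FPKM against 236 to 256, Jchain at 18.7 against 8.82 to 9.87, and Rfx5 at 9.16 against 10.9 to 11.1. Creb1 was at 6.05 FPKM in DDC 2 against 5.34 to 5.44. Lsp1 was at 24.4 FPKM in DDC 1 against 29.9 to 30.7. No explanation of these values was tested.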

How the results depend on the processing

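Of the 7 class II genes, H2-Aa, H2-Ab1, H2-Eb1, H2-DMa, Cd74 and Ciita passed as higher in DDC against Control under all 25 alternatives, and none passed in R15 against Control under any. For members in R15 against DDC the count was 3 with no filter on low values, where more genes were tested, and 0 to 7 with 1 library left out. It was 7 with array weights, 7 with only those groups in the fit, and 4 by voom, where Cd74 missed (limma adjusted p = 0.054). The count was 6 to 7 for DDC against Control. Over all genes the count of 1463 for R15 against Control became 317 with only those groups in the fit, 539 without Control 1 and R15 2, 511 without Control 1 and Control 3, and 685 to 2186 with 1 library left out, against 9202 to 10096 for DDC against Control and 8432 to 9686 for R15 against DDC. With the replicate number as a block the counts were 693, 9670 and 9056, and no call among the 7 genes changed, while H2-Ob passed in R15 against DDC (-0.47, limma adjusted p = 0.043). Each library came from its own mouse, and the numbers were not taken to pair mice. Same-numbered libraries correlated between -0.282 and 0.30 in their deviations and differently numbered ones between -0.544 and 0.604, so these correlations cannot decide on pairing. With rescaling to one FPKM total the median gene in R15 against DDC stood at 0.14 on the log2 scale, against 0.035 without it, with 6172 genes higher and 3305 lower there, against 5099 and 4397, and 4162 and 5518 in DDC against Control, against 5112 and 4869. Median-of-ratios scaling left 682 of 1389 calls higher in R15 against Control, against 1048 of 1463.

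Signs of small differences that had not passed changed. In R15 against Control, leaving out 1 library gave -0.10 to 0.67 for H2-DMa, -0.0064 to 0.70 for Ciita and -0.43 to 0.19 for H2-DMb1, which was 0.0035 with array weights and 0.23 without Control 1 and Control 3. In DDC against Control, leaving out 1 library gave -0.094 to 0.0017 for Nfya, -0.096 to 0.44 for Spib, -0.066 to 0.071 for Zbtb46, -0.17 to 0.10 for B2m, -0.38 to 0.19 for Tap1 and -0.36 to 0.11 for Psmb9. With array weights B2m was 0.15, Tap1 0.14 and Psmb9 0.051. Without Control 1 and R15 2 Zbtb46 was -0.066, B2m 0.10, Tap1 0.19 and Psmb9 0.11, and without Control 1 and Control 3 they were -0.048, 0.20, 0.40 and 0.27, with Tap2 at 0.062. Zbtb46 was -0.045 rescaled to one total and -0.020 under quantile normalization. The cause of these shifts was not tested. Ifng and Ms4a1 stayed under the filter on low values and were not tested.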
